A study of Mus musculus with 4 samples.

Results

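Purine and pyrimidine synthesis enzymes were followed here as 10 genes: Cad, Dhodh, Umps and Ctps of the pyrimidine pathway and Ppat, Gart, Paics, Atic, Impdh1 and Impdh2 of the purine pathway. They were taken by gene name from the non-control probes of each array, which gave 20 probes among 41174 and 10 genes among 27745 gene names. The samples were cultures of mouse embryonic fibroblasts, the connective tissue cells of the embryo, whose total RNA was hybridised to one-colour Agilent arrays. Four-factor cells had received Oct3/4, Sox2, Klf4 and c-Myc by transduction, the factors used to reprogramme cells towards pluripotency, and were grown for 72 hours (day 4) at 5% or 21% O2. Untransduced fibroblasts, without these factors, were kept at 5% or 21% O2 for 10 days. Each of these 4 conditions had 1 array, and strain, vector and the share of transduced cells are not given in the sources used here.

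Cells make nucleotides by de novo synthesis from amino acids, carbon dioxide and folate-carried carbon units, or by salvage of free bases and nucleosides. The purine ring is built on activated ribose phosphate up to inosine monophosphate, which branches to adenine and guanine nucleotides, while the pyrimidine ring is closed first and then joined to the ribose phosphate. Dividing cells depend on both routes for RNA and DNA, and several of these genes are known targets of MYC, one of the transduced factors.

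Of the 10 genes, 9 had a promoter sequence in the RefSeq table used here (build GRCm38.p6; Dhodh had none). The sequence CACGTG, the E-box bound by MYC and related factors, reads the same on both strands. It was searched for in windows from 250 bases before to 50 bases after each start site. It was present for Paics, Atic and Impdh2, 3 of the 9 genes, against 8.09% of all 27025 genes with a window, and in 7.15% of all 32851 windows. For the other 6 these letters were not in the window, which says nothing of binding. These 3 sequences are shown because they hold the motif, given in capitals, in the 250 bases before the start site, 5′ to 3′ on the plus strand: Paics at chr5:76951052-76951301 with the motif starting at base -203, Atic at chr1:71556906-71557155 with it at -7, and Impdh2 at chr9:108560186-108560435 with it at -110.
Paics: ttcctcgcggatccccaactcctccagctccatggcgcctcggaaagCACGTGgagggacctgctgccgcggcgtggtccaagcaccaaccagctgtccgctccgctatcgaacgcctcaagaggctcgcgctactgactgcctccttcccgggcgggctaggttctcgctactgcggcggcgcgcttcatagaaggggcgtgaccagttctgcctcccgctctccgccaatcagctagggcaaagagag
Atic: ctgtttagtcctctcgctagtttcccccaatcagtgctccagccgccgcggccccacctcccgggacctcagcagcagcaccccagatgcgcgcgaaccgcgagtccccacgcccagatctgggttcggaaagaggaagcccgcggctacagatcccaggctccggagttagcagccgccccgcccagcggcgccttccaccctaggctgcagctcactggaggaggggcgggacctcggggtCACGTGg
Impdh2: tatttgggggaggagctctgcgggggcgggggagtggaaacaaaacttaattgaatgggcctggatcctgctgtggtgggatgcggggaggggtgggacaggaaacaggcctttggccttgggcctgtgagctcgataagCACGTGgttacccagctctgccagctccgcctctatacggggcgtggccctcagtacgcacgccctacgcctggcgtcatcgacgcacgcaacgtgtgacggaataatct
Paics and Ppat lie head to head on chromosome 5, with Ppat on the minus strand, and their outermost RefSeq starts overlap by 277 bases, so that the Paics sequence shown lies inside Ppat.

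Values are log2 signals with the 75th percentile of the array as 0, and a gene is represented by the brightest of its probes over the arrays. All 10 brightest probes were well above background on the 4 arrays. Replicate spots of a probe differed with an SD of 0.095 and 0.090 for four-factor cells (5% and 21% O2) and 0.063 and 0.059 for untransduced fibroblasts. That is the error of a spot and not of a culture, since no condition was repeated. The arrays of each culture shared a slide, so transduction, time in culture and slide cannot be told apart, while each oxygen difference was measured within a slide. Of the fibroblast markers, 12 of 12 were well above background on all arrays. Macrophage markers were well above background for 5 of 12 genes in four-factor cells and 11 of 12 in untransduced fibroblasts, and Pou5f1 (the gene of Oct3/4) on the four-factor arrays alone. Klf4, another of the transduced genes, was lower in four-factor cells (-1.70 and -1.14 at 5% and 21% O2), and so was Sox2 at 5% O2 (-2.82), and whether these probes match the delivered sequences was not tested. In bulk RNA, fewer cells of a type and less RNA per cell cannot be told apart.

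The comparison of four-factor with untransduced cells asked how the RNA of these enzymes differs between the cultures. Every one of the 10 genes was higher in four-factor cells at both oxygen levels, against 49.3% of all genes at 5% O2 and 49% at 21% O2. Ppat, which commits ribose phosphate to the purine pathway, differed most, by 9.04-fold at 5% O2 and 6.28-fold at 21% O2. Umps and Cad followed, and Ctps and Impdh1 differed least.

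The pyrimidine genes are given in the order of their steps. CAD is a single large protein that carries out the first steps up to dihydroorotate. Cad (chromosome 5, 31354889 to 31354948, build mm8 as for all probes) was at 4.46 and 4.39 in four-factor cells (5% and 21% O2) and 2.28 and 2.33 in untransduced fibroblasts (5% and 21% O2). Both four-factor values lay well above both untransduced ones, and oxygen hardly separated the arrays of a culture. DHODH, on the inner mitochondrial membrane, oxidises dihydroorotate and hands the electrons to ubiquinone. Dhodh (chromosome 8, 112482694 to 112482753) was at 1.66 and 1.15 in four-factor cells (5% and 21% O2) and 0.46 and 0.45 in untransduced fibroblasts (5% and 21% O2). The four-factor array at 5% O2 stood above the one at 21% O2, and the untransduced arrays were nearly equal.

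UMPS joins orotate to ribose phosphate and removes a carboxyl group to give uridine monophosphate. Umps (chromosome 16, 33876604 to 33876663) was at 3.73 and 3.68 in four-factor cells (5% and 21% O2) and 1.08 and 1.495 in untransduced fibroblasts (5% and 21% O2). CTPS turns UTP into CTP. Ctps (chromosome 4, 120037519 to 120037578) was at 5.04 and 5.19 in four-factor cells (5% and 21% O2) and 4.01 and 4.68 in untransduced fibroblasts (5% and 21% O2). For both genes the untransduced array at 5% O2 was the lowest of the 4, and for Ctps the untransduced array at 21% O2 came nearest to the four-factor arrays.

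In the purine pathway, PPAT catalyses the committed first step. Ppat (chromosome 5, 77988376 to 77988435) was at 2.04 and 1.54 in four-factor cells (5% and 21% O2) and -1.14 and -1.11 in untransduced fibroblasts (5% and 21% O2). GART is a multifunctional protein that carries out early steps of ring assembly. Gart (chromosome 16, 91513244 to 91513303) was at 2.48 and 2.40 in four-factor cells (5% and 21% O2) and 0.83 and 1.05 in untransduced fibroblasts (5% and 21% O2). The gap between the cultures was the widest of any member for Ppat, and for Gart it was wider than any difference with oxygen.

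PAICS carries a carboxylase and the following synthetase. Paics (chromosome 5, 78041949 to 78042008) was at 4.77 and 4.51 in four-factor cells (5% and 21% O2) and 3.51 and 3.36 in untransduced fibroblasts (5% and 21% O2). ATIC catalyses the last steps to inosine monophosphate. Atic (chromosome 1, 71512316 to 71512375) was at 2.98 and 2.97 in four-factor cells (5% and 21% O2) and 0.95 and 1.30 in untransduced fibroblasts (5% and 21% O2). Paics, the neighbour of Ppat, was the one member with a higher value at 5% O2 in each culture by more than the spot error, and Atic was level in four-factor cells.

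IMPDH1 and IMPDH2 are isozymes that oxidise inosine monophosphate, the rate-limiting step towards guanine nucleotides, and IMPDH2 is the form that rises in dividing cells. Impdh1 (chromosome 6, 29150452 to 29150511) was at 2.44 and 2.16 in four-factor cells (5% and 21% O2) and 1.43 and 1.496 in untransduced fibroblasts (5% and 21% O2). Impdh2 (chromosome 9, 108422784 to 108422838) was at 5.17 and 4.91 in four-factor cells (5% and 21% O2) and 3.79 and 3.88 in untransduced fibroblasts (5% and 21% O2). Both isozymes showed the same order of the 4 arrays, with four-factor cells at 5% O2 on top.

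**Figure D1:**
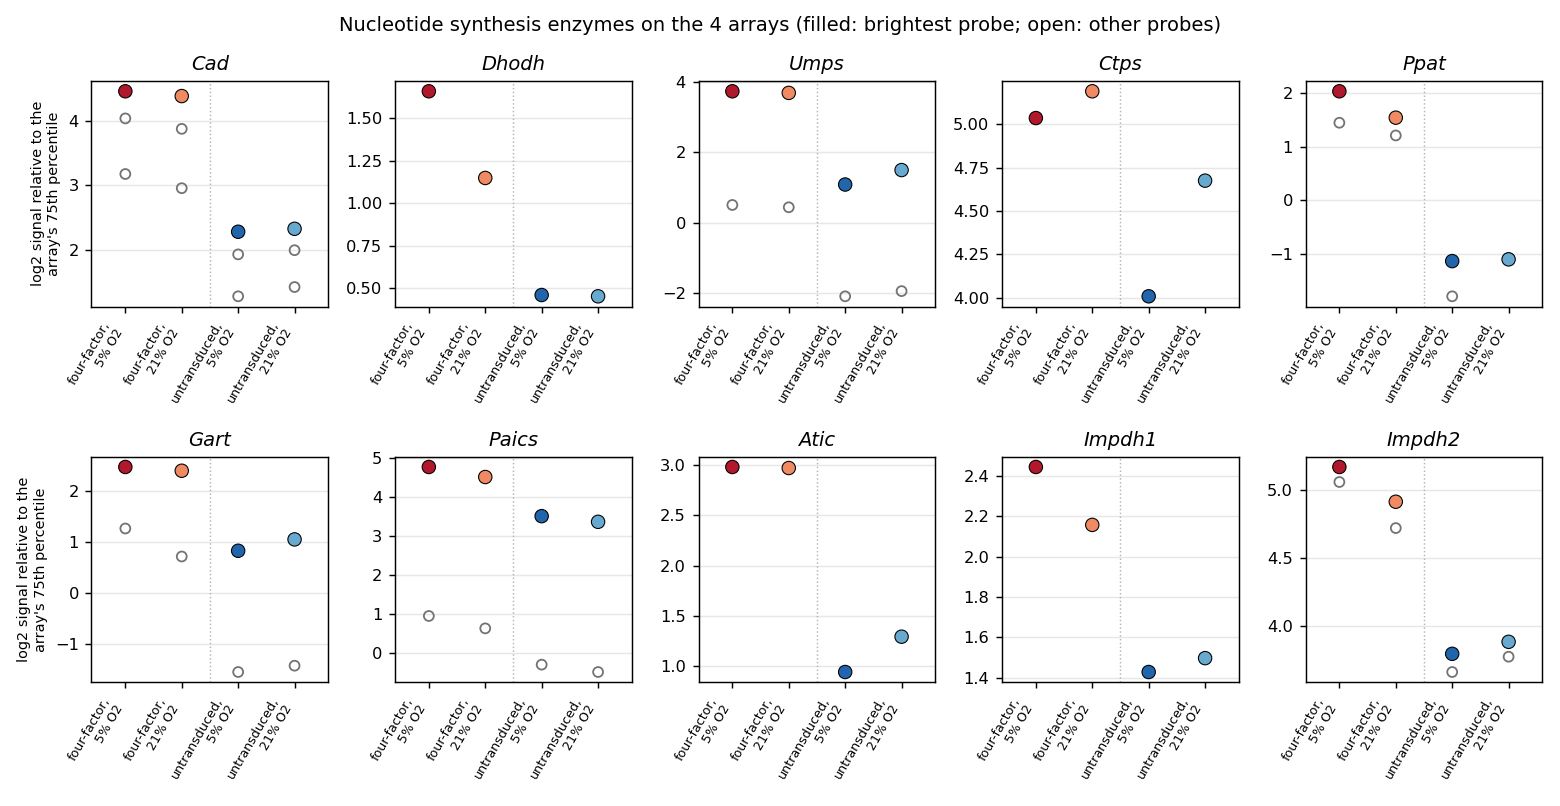
Log2 signal, with the 75th percentile of each array as 0 (vertical axis, a separate scale per gene) for each member on the 4 arrays, with the brightest probe filled and other probes measured on all arrays open. For all 10 genes both four-factor arrays lie above both untransduced arrays, from Ppat (2.04 and 1.54 against -1.14 and -1.11) to Ctps (5.04 and 5.19 against 4.01 and 4.68).

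Both four-factor arrays lay above both untransduced arrays for all 10 members, against 40.9% of 14980 genes measured on all arrays. At 5% O2 the median difference of the members was 1.51 (2.85-fold), with a range of 1.02 to 3.18, against a median of -0.02 over 15506 measured genes. All 10 were at least 2-fold higher there, against 17.1% of all genes. At 21% O2 the median was 1.25 (2.38-fold), with a range of 0.52 to 2.65, against -0.02 over 15273 genes. Here 7 of the 10 were at least 2-fold higher, against 11.8% of all genes. Dhodh (0.69), Impdh1 (0.66) and Ctps (0.52) were not. The pyrimidine and purine members overlapped, with medians of 1.69 and 1.51 at 5% O2 and 1.38 and 1.25 at 21% O2.

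These were differences between single arrays. The culture difference was tested with limma in an additive fit of culture plus oxygen, which takes the 2 oxygen levels as repeats of a culture. Its culture term was called higher for 10 of the 10 members at an adjusted p under 0.05, and for 27.2% of the 18359 genes fitted (another 22.7% were called lower). Ppat had an estimate of 2.91 (SE 0.21, limma adjusted p = 0.00449), Umps of 2.42 (SE 0.20, adjusted p = 0.00513) and Cad of 2.12 (SE 0.16, adjusted p = 0.00476). Atic rose by 1.85 (SE 0.185), Gart by 1.498 (SE 0.18), Paics by 1.21 (SE 0.16) and Impdh2 by 1.20 (SE 0.18). Dhodh at 0.94 (SE 0.21, adjusted p = 0.0287), Impdh1 at 0.84 (SE 0.18, adjusted p = 0.0294) and Ctps at 0.77 (SE 0.21, adjusted p = 0.0459) were nearest to the threshold. The fit has 1 residual degree of freedom, so that its error comes from how far the oxygen differences of the cultures lie apart, moderated over genes. The call for Ctps was lost with quantile normalization (0.62, adjusted p = 0.0748) and when genes measured on any array were fitted (adjusted p = 0.0711). The call for Gart was lost with the mean over a gene's probes (1.37, adjusted p = 0.067).

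**Figure D2:**
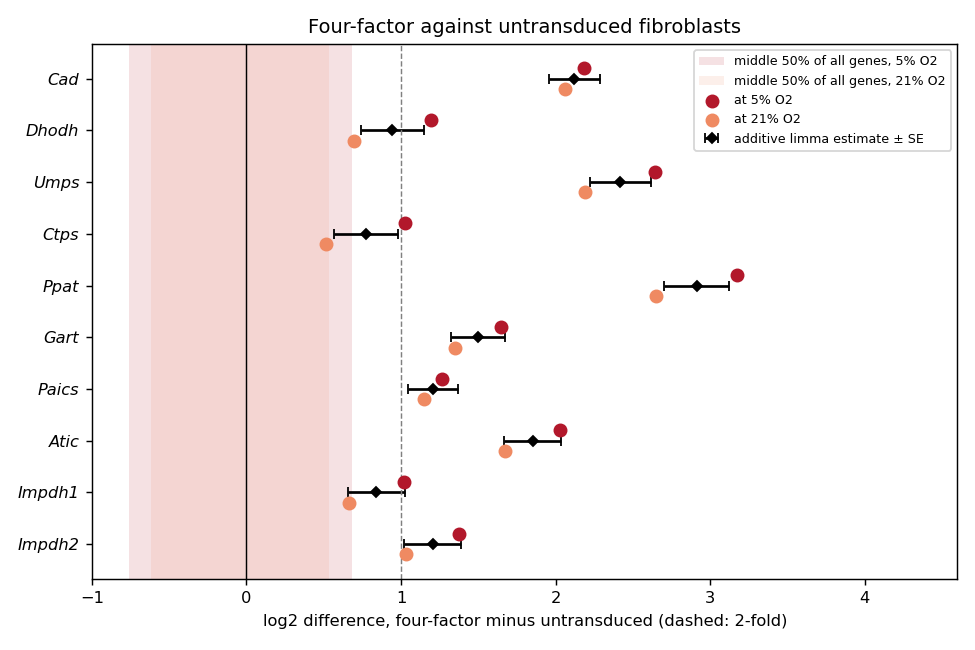
Log2 difference, four-factor minus untransduced, for each member at 5% and 21% O2, with the additive limma estimate ± SE (black) and shaded bands for the middle 50% of all measured genes at each oxygen level. Each point lies to the right of the band of its own oxygen level except Ctps at 21% O2 (0.52), and Ppat lies furthest out at 3.18 and 2.65.

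Several members had more than 1 probe, which gives a second reading of each difference. All 17 probes that were well above background on the 4 arrays were higher in four-factor cells at both oxygen levels. The 3 Cad probes of this kind gave 1.90 to 2.18 at 5% O2 and 1.54 to 2.06 at 21% O2. The second Umps probe (chromosome 16, 33874876 to 33874935) gave 2.59 and 2.38, and the second Ppat probe (chromosome 5, 77992865 to 77992924) gave 3.25 and 2.29, at 5% and 21% O2. For Paics (1.25 and 1.12) and Impdh2 (1.40 and 0.95) the second probe gave nearly the same differences as the first. The second Gart probe (chromosome 16, 91522356 to 91522415), which carries other accessions than the first, gave larger ones, 2.82 at 5% and 2.15 at 21% O2.

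The other 3 probes were dim on some arrays. A Cad probe upstream of the rest (chromosome 5, 31343655 to 31343714) was measured in four-factor cells only, where it was at least 2.37-fold (5% O2) and 1.95-fold (21% O2) higher than in untransduced fibroblasts. A probe named Umps (chromosome 16, 33886943 to 33887002) and one named Gart (91511573 to 91511632) have their coordinates in the order opposite to the strand of the gene, unlike the other 17 of 19 probes of members with a RefSeq strand. They therefore need not measure the enzyme's mRNA. The Umps one had signals of 18.8 and 11.7 intensity units in four-factor cells (5% and 21% O2) and was not well above background in untransduced fibroblasts. The Gart one passed background on a single array, four-factor at 5% O2, where it was at least 3.12-fold higher than at 21% O2 (signals of 31.1 and 2.14 intensity units).

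The other genes of nucleotide metabolism are given by list. Of all genes fitted, 27.2% were called higher and 22.7% lower, the shares to set beside each list's calls. Of 11 other de novo enzymes, the limma culture term was called higher for 6 and lower for 1, with a median difference of 1.51 at 5% O2 and 0.999 at 21% O2. Pfas, which acts between Gart's steps, was higher by 2.76 and 2.03 at 5% and 21% O2 (limma adjusted p = 0.00728). The synthetase Prps1, which makes activated ribose phosphate, was higher by 2.26 and 1.42, and the nucleoside diphosphate kinase Nme1 by 1.77 and 1.16. GMP synthetase, Gmps, which follows the IMPDH step, was higher by 1.55 and 1.07, though at 21% O2 only 2 of 3 Gmps probes were higher. Prps2 and the lyase gene Adsl made up the 6. The gene called lower was Ctps2, the isozyme of Ctps, at -0.78 and -0.69 (adjusted p = 0.0296). Ctps and Ctps2 thus lay on opposite sides of 0 at each oxygen level.

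All 8 genes of deoxynucleotide synthesis were called higher, with medians of 1.94 at 5% O2 and 1.17 at 21% O2. Dut, which hydrolyses dUTP, was at 2.28 and 1.49, Dctd, a deoxycytidylate deaminase, at 2.28 and 1.73, and the ribonucleotide reductase subunits Rrm1 and Rrm2 at 1.76 and 1.24 and at 2.01 and 1.11. Of the 10 salvage genes, 5 were called higher and 2 lower, the latter near the 22.7% of all genes called lower. Called higher were the thymidine kinase Tk1 (2.19 and 1.13), the adenine salvage enzyme Aprt (2.18 and 1.75), Dck (1.90 and 1.04), Uck2 (1.87 and 1.18) and Hprt (1.46 and 0.86). Called lower were the mitochondrial kinases Dguok (-1.47 and -0.83) and Tk2 (-1.02 and -0.81). Tk2 and Ctps2 were named after their values were seen, to complete these counts.

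The nucleotide breakdown list had no common direction. Of its 12 genes measured on both arrays at 5% O2, 6 were higher and 6 lower, with a median of -0.03. Xdh, which makes uric acid, was the lowest, at differences of -4.33 and -2.72 (5% and 21% O2), and lower too was Dpyd, which starts pyrimidine breakdown, at -1.74 and -1.22. Pnp, a nucleoside phosphorylase, was higher by 1.09 and 1.34, the ectonucleotidase Nt5e by 0.82 and 1.26, and the dNTP hydrolase Samhd1 by 1.23 and 0.91. Over the 16 genes the limma culture term was called higher for 7 and lower for 4, against 27.2% and 22.7% of all genes. The brightest probes of 4 of the 7 called higher were not well above background on either untransduced array. The cell cycle list moved with the members: all 16 genes were called higher, with medians of 2.21 at 5% O2 and 1.42 at 21% O2. Fibroblast markers were called lower in four-factor cells for 8 of 12 genes and higher for 0, though 2 of the 12 had higher values at each oxygen level. Macrophage markers were called lower for 9 of 12, but 7 of these 9 were not well above background on either four-factor array. The 1 macrophage marker called higher was not well above background on either untransduced array. The part of the cell cycle and of these cell types in the members' difference was not tested. The Myc probes were not of one direction, at 4.17 and 2.59 on the brightest (chromosome 15, 61819528 to 61819587), 4.98 and 3.53 on the second (61819036 to 61819095) and -0.74 and -1.51 on the third (61819627 to 61819687). Whether the Myc probes match the delivered sequence was not tested.

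**Figure D3:**
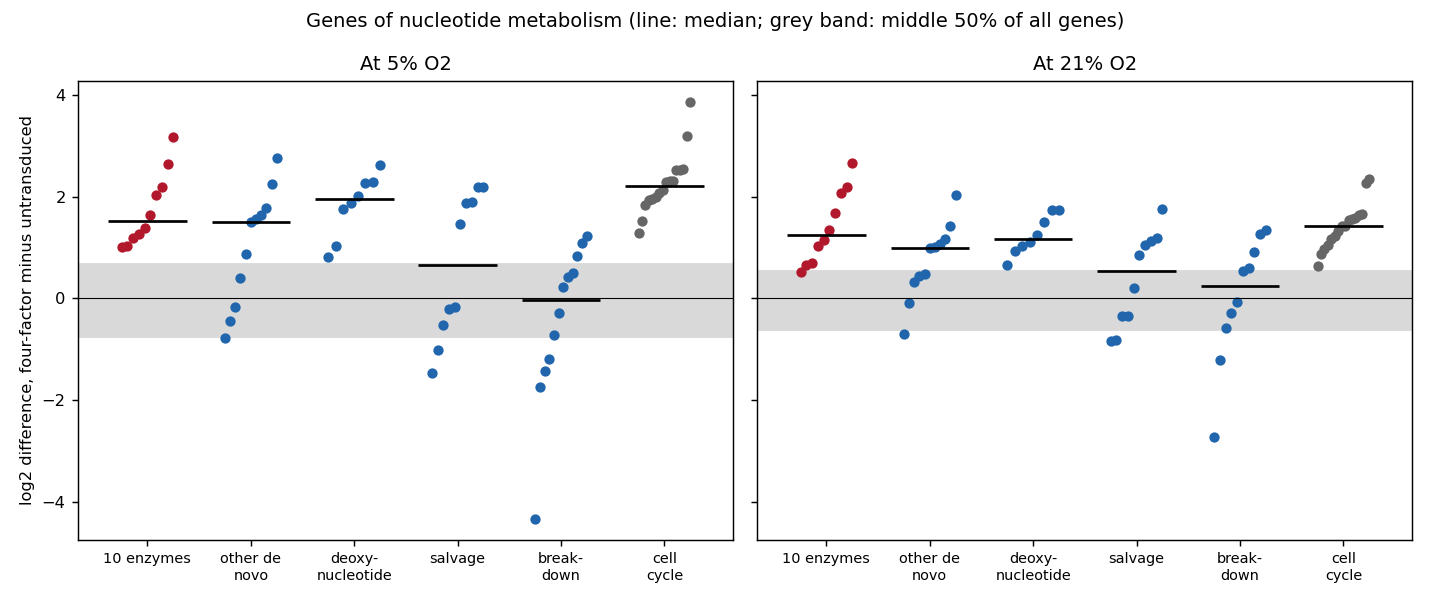
Log2 difference, four-factor minus untransduced, at 5% O2 (left) and 21% O2 (right) for the 10 enzymes and for 5 further gene lists, 1 point per gene measured on both arrays, with the list's median as a line and the middle 50% of all genes as a grey band. The medians of the enzymes (1.51 and 1.25), deoxynucleotide genes (1.94 and 1.17) and cell cycle genes (2.21 and 1.42) lie above the band, while breakdown genes (-0.03 and 0.23) spread to both sides.

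The oxygen comparisons asked whether these enzymes differ between 5% and 21% O2 within a culture. Differences were small, and Ctps in untransduced fibroblasts was the only value past 1.5-fold in the scaling used here. That depended on the processing: Ctps was under 1.5-fold with quantile normalization (-0.58), and in four-factor cells Dhodh (0.66) and Ppat (0.64) passed it with spike-in scaling. With a gene's probes averaged, Gart in four-factor cells passed it too, at 1.49, through its dim opposite-strand probe. In four-factor cells 9 of the 10 were higher at 5% O2, against 48.2% of all genes, with normexp background correction turning Atic to the other side (-0.04). The median was 0.17, against -0.01 over 18006 genes, and none reached 1.5-fold, against 4.78% of all genes higher by that much. Dhodh (0.51) and Ppat (0.49) differed most, followed by Impdh1 (0.29), Paics (0.26) and Impdh2 (0.26). Cad and Gart (both 0.07), Umps (0.05) and Atic (0.01) lay within the error of a difference between single spots, which was 0.13. The second Gart probe gave 0.55, so that the value for Gart depends on the probe. Ctps was at -0.15.

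In untransduced fibroblasts 8 of the 10 were lower at 5% O2, against 55.2% of all genes, with a median of -0.08 against -0.04 over 15253 genes. Cad turned to 0.01 with quantile normalization, and Dhodh to -0.00 with normexp and -0.06 with spike-in scaling. Ctps was lower at -0.67 (0.63-fold), the one member past 1.5-fold, which 5.72% of all genes passed in that direction. Umps (-0.41), Atic (-0.35) and Gart (-0.22) followed. Impdh2 (-0.09), Impdh1 (-0.07), Cad (-0.05), Ppat (-0.03) and Dhodh (0.01) lay within or at the spot error of 0.09, and Paics was higher by 0.15. The second Ppat probe gave -0.71 where the brightest gave -0.03, so that this value depends on the probe.

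The limma oxygen term, an oxygen difference common to both cultures, called 0 of the 10 members and 0 of the 18359 genes, of which 7.62% had an unadjusted p under 0.05. Ctps had the largest member estimate, -0.41 (SE 0.21, adjusted p = 0.735). A p that misses the threshold does not show that the levels were equal.

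**Figure D4:**
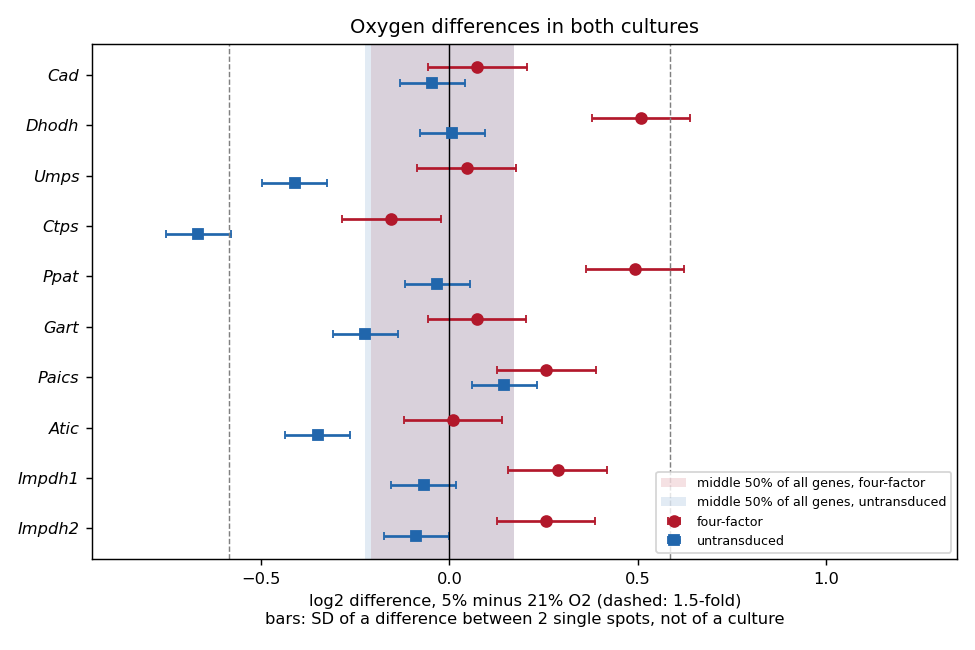
Log2 difference, 5% minus 21% O2, for each member in four-factor cells (circles) and untransduced fibroblasts (squares), with bars for the SD of a difference between 2 single spots and bands for the middle 50% of all genes. Each four-factor point lies to the right of the untransduced point of the same gene, by 0.11 (Paics) to 0.53 (Ppat).

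Set against each other, the oxygen difference was more positive in four-factor cells than in untransduced fibroblasts for all 10 members, as it was for 52.4% of 14980 genes. The gap had a median of 0.36 over the members and 0.02 over all genes. For 7 of the 10 the signs were opposite, higher at 5% O2 in four-factor cells and lower in untransduced fibroblasts, against 24% of all genes. The gap was 0.53 for Ppat, 0.51 for Ctps, 0.50 for Dhodh and 0.46 for Umps, and 0.12 for Cad and 0.11 for Paics. With 1 array per condition this gap has no test, and it is the same quantity as the larger transduction difference at 5% O2. The cultures also differed in time at their oxygen level (72 hours for four-factor cells, 10 days for untransduced fibroblasts) and in slide. These cannot be told apart from transduction in the gap. The cell cycle list had the same signs in all 16 genes, with a median of 0.52 for four-factor cells against -0.32 for untransduced fibroblasts, and its part in the enzymes' gap was not tested. The deoxynucleotide genes had medians of 0.37 and -0.22, with Dut (0.54) and Tyms (0.49) in four-factor cells and Rrm2 (-0.67) and Tyms (-0.46) in untransduced fibroblasts. The other de novo enzymes had medians of 0.13 and -0.18, with Pfas at 0.62 and -0.11, Prps1 at 0.42 and -0.42, and Nme1 at 0.02 and -0.59. Adssl1, an adenylosuccinate synthetase best known from muscle, had the opposite order (-0.39 and 0.49). Of the salvage genes, Tk1 was at 0.48 and -0.58 and Dck at 0.39 and -0.46. Of the breakdown genes, Xdh was at -0.53 and 1.08 and Nt5e at 0.58 and 1.01. In untransduced fibroblasts macrophage markers were higher at 5% O2 (11 of 11 measured, median 1.45). In four-factor cells the 5 measured were all lower at 5% O2 (median -0.525). The part of macrophage markers in the enzymes' differences was not tested. The Myc probes, in the order given above, were lower at 5% O2 in untransduced fibroblasts (-1.27, -1.20 and -1.21). In four-factor cells they were at 0.30, 0.25 and -0.44, and the part of Myc in the enzymes' differences was not tested.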

How the data were processed

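The analysis used 4 one-colour (Cy3) arrays, 1 per condition. Per the file headers, spots were read with Feature Extraction 9.5.3.1 (array design 014868, build mm8, NCBI 36), and the processed intensity had its background subtracted and spatial trend removed array by array. The deposited value table holds log2 values whose software is not stated. It lay within 0.01 of the values used here for 99.8% to 99.9% of probes, so its scale is the 75th percentile, without centring per probe (column medians -3.86 to -3.69).

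Outlier spots (65 to 115 of 43379) were dropped, replicate spots averaged, and log2 processed signals set relative to the array's 75th percentile (1148 and 1136 for the four-factor arrays, 871 and 810.2 for the untransduced arrays, 5% before 21% O2). No spot was saturated. Differences cover genes well above background on both arrays. A difference against a dim array is a lower bound, taken against that array's lowest signal well above background or the dim probe's own signal if higher.

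limma 3.58.1 (R 4.3.3, lmFit, eBayes, Benjamini-Hochberg over the 18359 genes that at least 2 arrays measured) fitted culture and oxygen, and was tested on simulated data. The simulation had equal noise in every gene (SD 0.1) and 200 changed genes, unlike these data, so it does not give the error rate here. With 1 array per condition, p-values measure only the spread between these arrays. Without replicates, the number of arrays limits the precision. Alternatives were normexp (offset 50), quantile normalization, spike-in scaling (8 control probes), the mean over a gene's probes, the deposited table and no filter on dim probes.

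All members were named, and from each list the up to 4 genes with the largest difference in any of the 4 comparisons, except 1 gene that is not reported here. A gene named through 1 comparison may be given in others, and Tk2 and Ctps2 were added. The members and lists were chosen with earlier results of these data known. Gene names are those of the array, updated for some list genes through RefSeq (GRCm38.p6).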

Additional observations from a re-analysis of the deposited data

Results flagged for a closer look

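The oxygen difference had opposite signs in the cultures for 7 members, higher at 5% O2 in four-factor cells and lower in untransduced fibroblasts, a pattern shared by 24% of all genes measured on all arrays. Each side is 1 array against 1 array, so these differences between the cultures were not tested. Time at the oxygen level (72 hours against 10 days) and slide cannot be told apart from transduction in them. The difference in four-factor cells exceeded that in untransduced fibroblasts by 0.53 for Ppat, 0.46 for Umps, 0.36 for Atic, 0.36 for Impdh1, 0.34 for Impdh2, 0.30 for Gart and 0.12 for Cad. For Ppat, Impdh1 and Impdh2 the larger part lay in four-factor cells (0.49, 0.29 and 0.26), and for Umps, Atic and Gart in untransduced fibroblasts (-0.41, -0.35 and -0.22). The second probes of Ppat (0.24 for four-factor cells against -0.71 for untransduced fibroblasts) and Gart (0.55 against -0.12) kept the opposite signs but put the larger part in the other culture. In each of the 7 members at least 1 of the signs belongs to a value within or at the spot error (0.13 in four-factor cells, 0.09 in untransduced fibroblasts). The sign turned for Atic in four-factor cells with normexp (-0.04) and for Cad in untransduced fibroblasts with quantile normalization (0.01).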

How the results depend on the processing

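All 10 members were higher in four-factor cells at both oxygen levels under the main setting and the 6 alternatives, and no member past 1.5-fold changed sign. Lifting the filter on dim probes leaves the members' differences as they were. The deposited table has the same scale as the main setting, so neither of these alternatives could change a direction of that size. With spike-in scaling the median over all genes moved to 0.14 and -0.11 (oxygen in four-factor and untransduced cells) and to 0.61 and 0.38 (transduction at 5% and 21% O2). The members' medians moved with it, to 0.32 for oxygen in four-factor cells and 2.13 and 1.65 for transduction at 5% and 21% O2. Relative to all genes these medians are 0.18, 1.53 and 1.27 in both settings by construction, since spike-in scaling shifts every gene of an array by the same amount. Dhodh and Ppat then passed 1.5-fold with oxygen in four-factor cells (2 members, against 0 in the main setting). With the mean over probes the transduction medians were 1.71 and 1.06 at 5% and 21% O2, and 1 member (Gart, at 1.49, through its dim opposite-strand probe) passed 1.5-fold with oxygen in four-factor cells. The culture call for Gart was then lost (adjusted p = 0.067, limma). With quantile normalization Ctps was under 1.5-fold with oxygen in untransduced fibroblasts, leaving 0 members, and 8 rather than 10 members were at least 2-fold higher in four-factor cells at 5% O2. At 21% O2 that count ran from 5 (mean over probes) to 9 (spike-in scaling), against 7. The limma oxygen term called 182 genes with normexp and 548 with spike-in scaling, none of them a member, and 0 under the others. The cause was not tested. Spike-in scaling also moved the split of culture calls over all genes, to 8952 higher and 2669 lower, against 4995 and 4174. At least 2-fold higher and lower at 5% O2 were then 5415 and 1726 genes, against 2648 and 3097, and at 21% O2 3483 and 1663, against 1807 and 2533. No pairing of replicates was possible because each condition had 1 array and the labels give no replicate numbers. The only pairing of the cultures was by oxygen level, in the additive fit.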
